A study of Mus musculus with 2 samples.

Results

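The genes described here are the 22 fibroblast growth factor (FGF) ligand genes of the mouse, 5 genes for FGF receptors, and 10 genes that FGF signalling induces or that restrain it. They were chosen by name, with earlier results of these data known. Each was searched for binding of Suz12 over its gene body and 2.5 kb to either side. Suz12 is a core subunit of Polycomb Repressive Complex 2, which methylates histone H3 on lysine 27 and is associated with silent genes. Of the 37 genes, 36 lie on assembled chromosomes and could be searched, out of 21521 protein-coding genes in all. Spry3 could not be placed, because the annotation gives its position on a separate piece of chromosome X and not on the assembled chromosome where peaks were called.

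The data are 3373 Suz12 peaks from 1 chromatin immunoprecipitation library. It was made from wild-type E14 cells (strain E14-WT), a mouse embryonic stem cell line grown in serum, 72 h after the medium was changed to one with all-trans-retinoic acid at 1 µM and without the self-renewal cytokine leukemia inhibitory factor. The other library of the series comes from the Suz12-KO strain, genotype Suz12-/-, at 0 h in serum with the same antibody against Suz12, and was not analysed here. With 1 library there is no replicate error, no p-value is given, and the main shares carry an exact (Clopper-Pearson) 95% binomial interval that covers counting error only and treats genes as independent.

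FGF ligands are secreted proteins that bind receptor tyrosine kinases together with heparan sulfate or Klotho co-receptors, and the activated receptors signal mainly through the RAS and ERK cascade. The cascade induces the ETS factors Etv4 and Etv5 and its own inhibitors of the Sprouty, Spred and Dusp families. In embryonic stem cells Fgf4 is the main autocrine ligand and helps cells leave the undifferentiated state, while Fgf5 marks the epiblast-like state that follows. A group of intracellular FGF homologues, Fgf11 to Fgf14, is not secreted and binds voltage-gated sodium channels.

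The starts of 6 of these genes are shown because the series is about the recruitment of Polycomb Repressive Complex 2 to CpG islands, stretches rich in the dinucleotide CG. For each role the gene with the widest peak is given first and a gene without a peak after it, among genes with a promoter entry in RefSeq (GRCm38.p6). Each stretch holds the 250 bases before an annotated start, read 5′ to 3′ on the strand of the gene, with every CG in capitals. Fgf9 (chr14:58072436-58072685, plus strand), Fgfr3 (chr5:33722056-33722305, plus) and Spred3 (chr7:29168648-29168897, minus) have a peak. Fgf10 (chr13:118714449-118714698, plus), Fgfr2 (chr7:130266809-130267058, minus) and Dusp6 (chr10:99262981-99263230, plus) have none.
Fgf9: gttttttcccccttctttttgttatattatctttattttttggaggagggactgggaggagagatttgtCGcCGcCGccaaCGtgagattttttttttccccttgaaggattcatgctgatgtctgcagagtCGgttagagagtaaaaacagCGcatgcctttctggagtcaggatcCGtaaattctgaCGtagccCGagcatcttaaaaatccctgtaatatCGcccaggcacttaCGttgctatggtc
Fgf10: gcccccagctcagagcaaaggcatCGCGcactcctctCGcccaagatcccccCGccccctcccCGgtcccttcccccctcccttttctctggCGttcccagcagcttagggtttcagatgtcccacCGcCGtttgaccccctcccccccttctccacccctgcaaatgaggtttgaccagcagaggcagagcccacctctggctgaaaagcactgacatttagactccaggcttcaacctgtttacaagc
Fgfr3: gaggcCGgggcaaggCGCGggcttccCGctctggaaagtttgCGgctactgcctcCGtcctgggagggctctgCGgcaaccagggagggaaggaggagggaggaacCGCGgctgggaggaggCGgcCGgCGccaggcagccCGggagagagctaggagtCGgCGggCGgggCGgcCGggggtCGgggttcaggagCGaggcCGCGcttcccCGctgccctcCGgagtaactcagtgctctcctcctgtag
Fgfr2: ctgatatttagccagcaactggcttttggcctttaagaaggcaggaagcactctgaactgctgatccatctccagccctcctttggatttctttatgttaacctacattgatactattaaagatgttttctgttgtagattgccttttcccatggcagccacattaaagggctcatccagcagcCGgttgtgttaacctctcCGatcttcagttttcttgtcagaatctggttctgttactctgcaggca
Spred3: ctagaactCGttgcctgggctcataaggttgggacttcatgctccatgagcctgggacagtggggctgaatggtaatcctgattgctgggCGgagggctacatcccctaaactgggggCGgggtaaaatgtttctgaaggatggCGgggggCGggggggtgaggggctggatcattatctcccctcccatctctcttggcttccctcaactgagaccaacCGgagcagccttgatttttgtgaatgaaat
Dusp6: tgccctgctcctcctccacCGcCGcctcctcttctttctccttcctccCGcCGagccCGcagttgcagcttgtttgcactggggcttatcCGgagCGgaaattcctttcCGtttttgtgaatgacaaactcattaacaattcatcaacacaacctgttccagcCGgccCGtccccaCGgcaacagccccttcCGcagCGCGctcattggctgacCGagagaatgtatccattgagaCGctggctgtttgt
The stretch of Fgfr3 holds 24 CG and lies in a Suz12 peak, whereas that of Fgfr2, from the same receptor family, holds 2 CG and has no peak near it. The stretch of Fgf9 holds 11 CG, is poor in G and C (44.8%) and lies in the widest peak of the whole gene group. Its ratio of observed to expected CpG, 0.88, is the highest of the 6 stretches. The Fgf9 stretch lies inside the gene as annotated, as do those of Fgfr3 and Spred3. The outer ends of Fgf9 and Spred3 have no promoter entry and were not examined. The stretch of Dusp6 holds 16 CG without a peak, against 6 at Spred3. The peak counted for Spred3 does not cover its start and lies wholly inside the neighbouring gene Ggn.

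Under the 2.5 kb rule, Suz12 lay at most ligand genes and at fewer than 50% of the receptor and feedback genes. With a score minimum at the list median, 11 of 22 ligand genes were left. A peak was found at 20 of 36 genes (55.6%, 95% interval 38.1 to 72.1), against 2833 of 21521 protein-coding genes (13.2%) under the same rule. Ligand genes had a peak at 14 of 22 (63.6%, 40.7 to 82.8). Receptor genes had one at 2 of 5 (40%, 5.27 to 85.3), and feedback and target genes at 4 of 9 (44.4%, 13.7 to 78.8). The intervals of the 3 roles overlap widely and their difference was not tested. A search of whole gene bodies gives long genes more room for a peak. Under this rule 15.9% of genes longer than the median of 17375 bp had a peak and 10.4% of the others. The split by length was not made for gene ends alone, so the part due to the rule is not known. Of the 36 FGF genes, 15 are longer than that median.

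**Figure D1:**
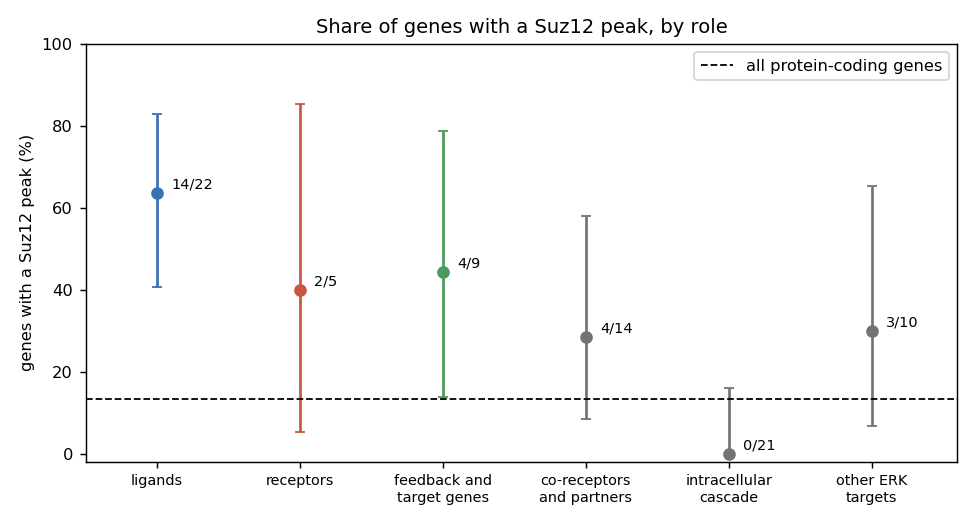
The share of genes with a Suz12 peak (vertical axis, %) is plotted by role for the FGF genes (coloured) and for other genes of the pathway (grey), with exact 95% binomial intervals as bars and the count of genes beside each point. Ligands stand at 63.6%, the intracellular cascade at 0%, and the dashed line marks the 13.2% of all protein-coding genes.

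The authors gave each peak a score whose scale the file does not state. Scores run from 150 to 3233 over the list with a median of 572. The value 3100 is shared by 325 peaks and 30 lie above it, so the order at the top says little. The best peaks of the 20 FGF genes had a median score of 1501 and a median width of 2855 bp, against 661 and 1979 bp for the 2813 other genes with a peak. A score of 3100 or more was reached by 2 of the 20 (10%), against 367 of the 2813 (13.05%). The median of the FGF genes was higher, and their share at 3100 or more was slightly lower. This difference was not tested, since genes of 1 library are not replicates.

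Among the ligands, Fgf4 and Fgf8 had the highest score, the shared value of 3100. Fgf4, active in undifferentiated stem cells, had a peak of 4857 bp (chr7:144859338-144864194) that covered 72.8% of the gene, the highest covered share of the FGF genes. Fgf8, a ligand of gastrulation, limb and brain patterning, had 3 peaks, the best of 2479 bp (chr19:45740564-45743042) over 1 end of the gene. The others, of scores 423 and 888, lay 165 and 1756 bp beyond that end. Joined over gaps of up to 3 kb, the 3 peaks form a stretch of 6143 bp, the longest at an FGF gene after the single peak at Fgf9.

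Secreted ligands are grouped into subfamilies by sequence. In the FGF8 subfamily all 3 genes had a peak, with Fgf18, which acts in bone and cartilage, at score 759 (2352 bp) and Fgf17, a ligand of the midbrain and hindbrain, at only 251 (1135 bp). In the FGF9 subfamily again all 3 had one. Fgf9, which acts in lung and testis, had the widest peak of all (6610 bp, score 2576), followed by Fgf16 of the heart (3114 bp, 1577) and Fgf20 of the inner ear and kidney (1470 bp, 386). With 3 genes each, the interval for these subfamilies runs from 29.2 to 100%.

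In the FGF7 subfamily, ligands of the mesenchyme that act on epithelia, only Fgf3 of 4 genes had a peak (25%, 0.63 to 80.6). That interval includes the 13.2% of all protein-coding genes. The peak of Fgf3, a ligand of inner ear and tail development, was 3483 bp wide with score 2802 (chr7:144837229-144840711) and covered 44.3% of the gene. Fgf7, Fgf10, the ligand needed for limb and lung budding, and Fgf22 had none. The nearest peak lay 310414 bp from Fgf7, 1111135 bp from Fgf10 and 18794 bp from Fgf22.

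In the FGF4 subfamily Fgf5 had a peak of 2973 bp with score 708, lower than that of Fgf4, and Fgf6, a gene of skeletal muscle, had none. In the FGF1 subfamily, whose members lack a classical secretion signal, Fgf2 had a 2207 bp peak (score 807) and Fgf1 had none within 63682 bp. Of the endocrine ligands, Fgf15, which controls bile acid synthesis from the gut in the adult, had a peak of 2879 bp with score 1954 covering 33.5% of the gene. Fgf21, a liver hormone, and Fgf23, a bone hormone of phosphate balance, had none.

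**Figure D2:**
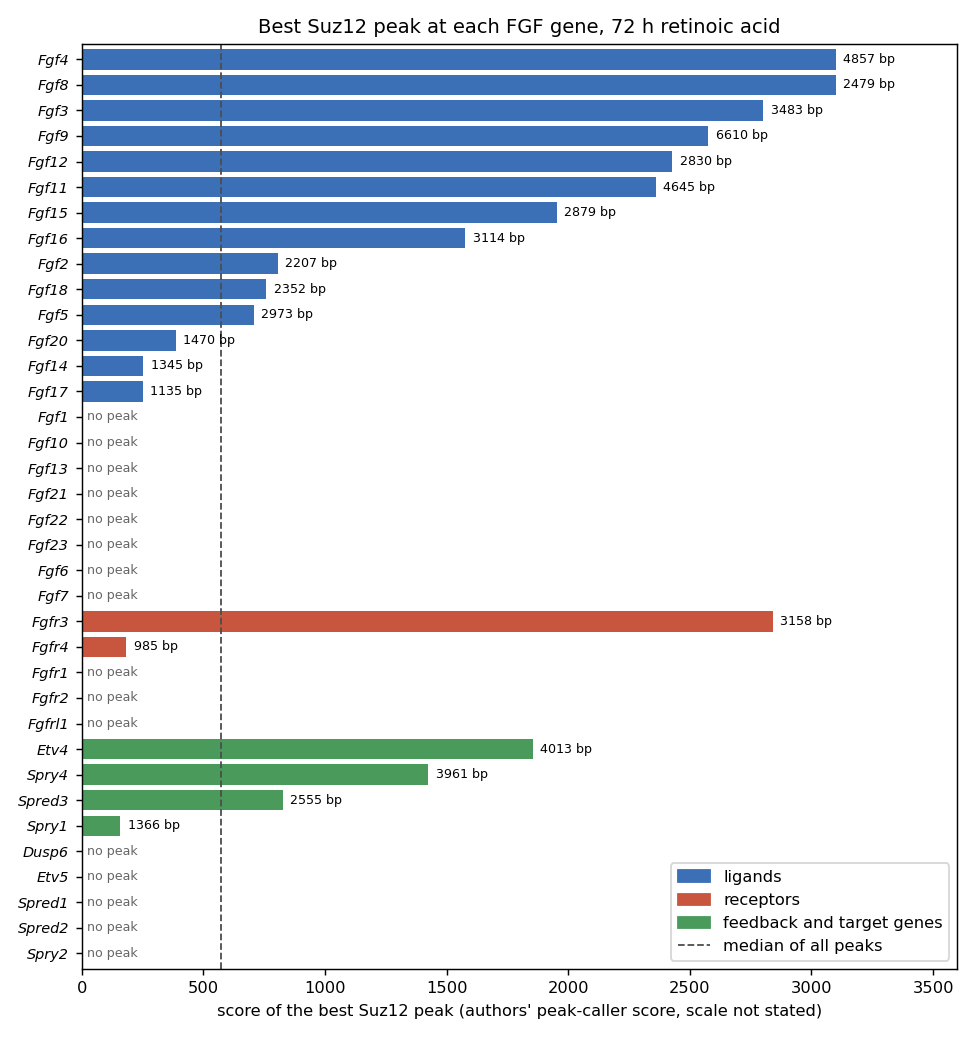
Bars give the score of the best Suz12 peak at each of the 36 searched genes (horizontal axis, authors' score of unstated scale), grouped by role and sorted within it, with the width of that peak beside the bar. Of the 20 genes with a peak, 15 lie above the dashed list median of 572, and Fgf4 and Fgf8 lead at 3100.

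The intracellular homologues had a peak at 3 of 4 genes (75%, 19.4 to 99.4), against 13.2% of all protein-coding genes. Of these 4 genes, 3 are longer than the median gene length, and 15.9% of all such long genes had a peak. At Fgf12 and Fgf14 the best peak lay deep inside the gene. Fgf12 is annotated over 595461 bp with 4 starts. Its best peak (2830 bp, score 2428) covered the innermost start, a second peak (1185 bp, 304) covered both middle starts, and the outermost start lay 187917 bp from the nearest peak. Each of the 4 start windows of Fgf12 is rich in CpG, with a ratio of observed to expected CpG of 0.72 at the innermost start, 0.85 and 0.95 at the middle starts and 0.78 at the outermost. The peak of Fgf14 (1345 bp, 254) lay 217481 bp from the nearer end of the gene and covered the only start in the promoter entry. Under a rule limited to 2.5 kb around gene ends, which 11.8% of all genes pass, Fgf12 and Fgf14 would count as unbound.

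Fgf11 had a peak of 4645 bp with score 2360 that also overlapped 1918 bp of its neighbour Tmem102. Fgf13, on chromosome X, had no peak within 1027975 bp. Of its 4 start windows, those with ratios of 0.95 and 0.97 are as rich in CpG as the middle starts of Fgf12, and the others have ratios of 0.49 and 0.19.

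On chromosome 7, 3 ligand genes from 3 different subfamilies stand side by side, and each had a peak of its own. Fgf3, Fgf4 and Fgf15 lie within 62342 bp, with 18037 bp between Fgf3 and Fgf4 and 31286 bp between Fgf4 and Fgf15. The next protein-coding genes are LTO1 and the cyclin gene Ccnd1, and the best of 3 peaks at Ccnd1 was 3192 bp wide with score 1954. Fgf6 and Fgf23 form a similar pair on chromosome 6, 48183 bp apart and also on one side of a cyclin gene, Ccnd2. There the nearest peak to Fgf23 was 66005 bp away, at Ccnd2, where 2 peaks had scores of 1550 and 1319. The cyclin genes at both places thus had peaks, and the ligand genes beside them had peaks on chromosome 7 alone. The genes beside the ligands were looked at after the peaks of the ligands were known.

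**Figure D3:**
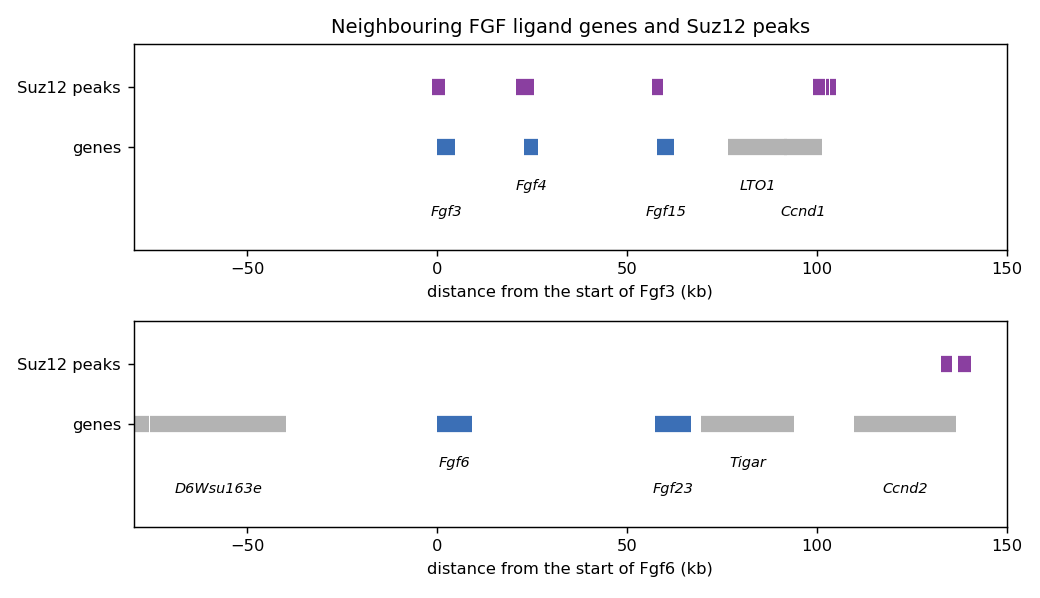
Protein-coding genes (FGF ligands blue, others grey) and Suz12 peaks (purple) are drawn to scale along the chromosome, with the distance from the start of Fgf3 (top) or Fgf6 (bottom) in kb on the horizontal axis. In the upper map each of the 3 ligand genes has a peak at its left end, and in the lower map the only peaks lie at Ccnd2.

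Of the receptor genes, Fgfr3 and Fgfr4 had a peak. Fgfr3, a receptor known for its role in cartilage and in neural progenitors, had a peak of 3158 bp with score 2842 (chr5:33721352-33724509) that covered both of its annotated starts and 18.2% of the gene. Fgfr4, a receptor of endoderm, liver and muscle, had a narrow peak of 985 bp with score 183 (chr13:55152421-55153405), and 91.1% of the peaks in the list scored at least as high. Fgfr1, the main receptor of embryonic stem cells and of mesoderm, had no peak within 479490 bp, and Fgfr2, a receptor of epithelia, none within 667780 bp. Fgfrl1, a receptor without a kinase domain, had none within 143445 bp. The receptor count thus rests on 1 high-scoring peak and 1 peak near the lower end of the list.

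Among the feedback and target genes, Etv4 and Spry4 held the main peaks. Etv4, an ETS transcription factor induced by FGF, was marked by a peak of 4013 bp, score 1854 (chr11:101783696-101787708) over an end of the gene, while its relative Etv5 had none within 216737 bp. Spry4, a Sprouty inhibitor of the pathway, had a peak of 3961 bp with score 1425 (chr18:38598896-38602856), which also overlapped 1240 bp of the neighbouring gene Arhgap26. Spry1 had a peak of 1366 bp with score 159, just above the lowest score of 150 in the list. Spry2 had none within 1417559 bp.

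The peak counted for Spred3, of 2555 bp with score 828 (chr7:29170797-29173351), lay 727 bp beyond the gene and wholly inside the neighbouring gene Ggn, so it need not belong to Spred3. Every other gene counted had a peak that overlapped it, and the nearest gene left out was Fgf21, 12213 bp from a peak. Spred1 and Spred2, relatives of Sprouty that block RAF activation, had no peak, nor did Dusp6, the phosphatase that removes phosphate from ERK and a standard readout of FGF signalling. The nearest peak to Dusp6 was 3758939 bp away, the greatest distance among the FGF genes. Of the 16 genes without a peak, 14 lay more than 50 kb from the nearest one and 5 more than 1 Mb.

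At 17 of the 20 genes the best peak covered an end of the gene, at 2 it lay inside and at 1 beyond. Where the promoter entries give the strand, a start lay within a peak at 12 of 13 FGF genes with a peak (92.3%), against 1469 of 2088 other genes with a peak (70.4%). The exception was Spred3. The other FGF genes with a peak have no promoter entry, and the difference from other genes was not tested. Most of these peaks reached to both sides of the start, for example 2048 bp upstream and 2808 bp downstream at Fgf4. At Spry1 the peak began 37 bp upstream and ran 1328 bp into the gene, and at Fgf11 most of it lay upstream (3232 bp, against 1412 bp downstream).

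**Figure D4:**
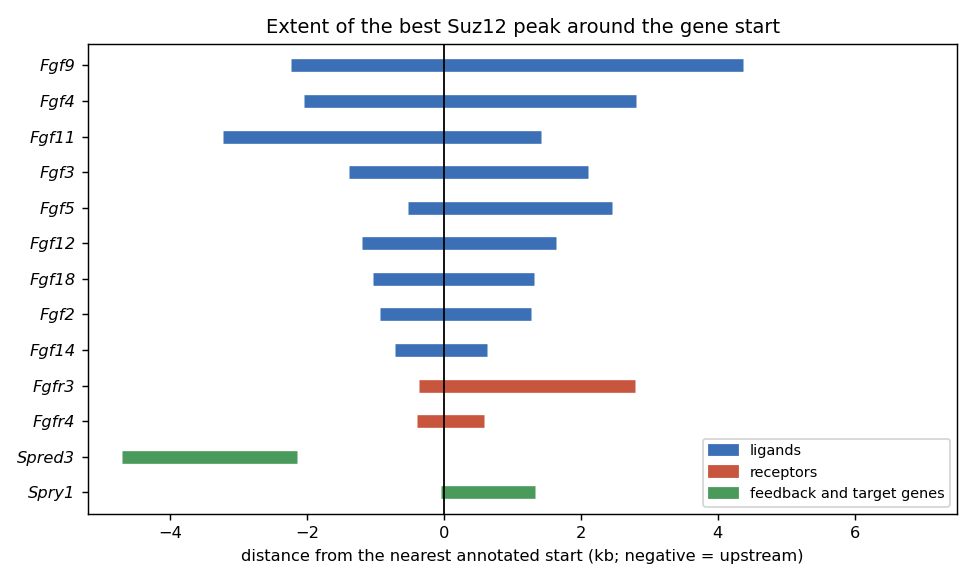
Each bar spans the best Suz12 peak of one of the 13 FGF genes that have a peak and a promoter entry, with the distance from the nearest annotated start in kb on the horizontal axis and negative values upstream. All bars but that of Spred3 cross the start, and the longest is that of Fgf9, 6610 bp.

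CpG content was compared in windows from 250 bases before to 50 after each start, taking for each gene its window with the highest ratio of observed to expected CpG. The median ratio was 0.78 in the 13 FGF genes with a peak and an entry (range 0.28 to 1.02) and 0.71 in the 14 without a peak (0.28 to 1.03). In other genes it was 0.72 for the 2088 with a peak and 0.59 for the 15159 without. The ranges of the FGF genes with and without a peak overlap almost completely. Genes without an entry are missing from this comparison, and more of them have a peak than not. They are Fgf8, Fgf15, Fgf16, Fgf17, Fgf20, Spry4 and Etv4, with a peak, and Fgf1 and Fgfr1, with none. A window with a ratio of at least 0.6 and at least 50% G and C, the usual island criteria applied to 300 bases, was present at 9 of 13 FGF genes with a peak (69.2%), close to the 1360 of 2088 other genes with a peak (65.1%). It was present at 8 of 14 FGF genes without a peak (57.1%), against 7049 of 15159 other genes without one (46.5%). Among genes with such a window, 9 of 17 FGF genes (52.9%) had a peak, against 1360 of 8409 other genes (16.2%).

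Of the 8 FGF genes with such a window and no peak, 5 were feedback genes, and the others were Fgfrl1, Fgf13 and Fgf22. These 5 are all the searched feedback genes without a peak. Every feedback gene with an entry except Spred3 had such a window, so the count is not particular to unbound feedback genes. Ratios of 1.03 at Spred1, 0.95 at Spry2, 0.94 at Etv5, 0.80 at Dusp6 and 0.70 at Spred2 stand beside 0.93 at Spry1, which had a peak. The receptor gene Fgfrl1, at 0.96, had no peak, whereas Fgfr3 and Fgfr4, at 0.78 and 0.65, had one. Fgfr2 (0.28), Fgf23 (0.33), Fgf21 (0.36), Fgf10 (0.39) and Fgf6 (0.44) had low ratios and no peak, and Fgf11 (0.28), Spred3 (0.36) and Fgf14 (0.40) had low ratios with a peak. The only start windows of Fgf11, Spred3 and Fgf14 lie inside the gene as annotated, and the outer ends of these genes were not measured. The peak counted for Spred3 lies in the neighbouring gene Ggn. Low CpG content in the measured window was thus found on both sides, but with a peak only in windows inside the gene.

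**Figure D5:**
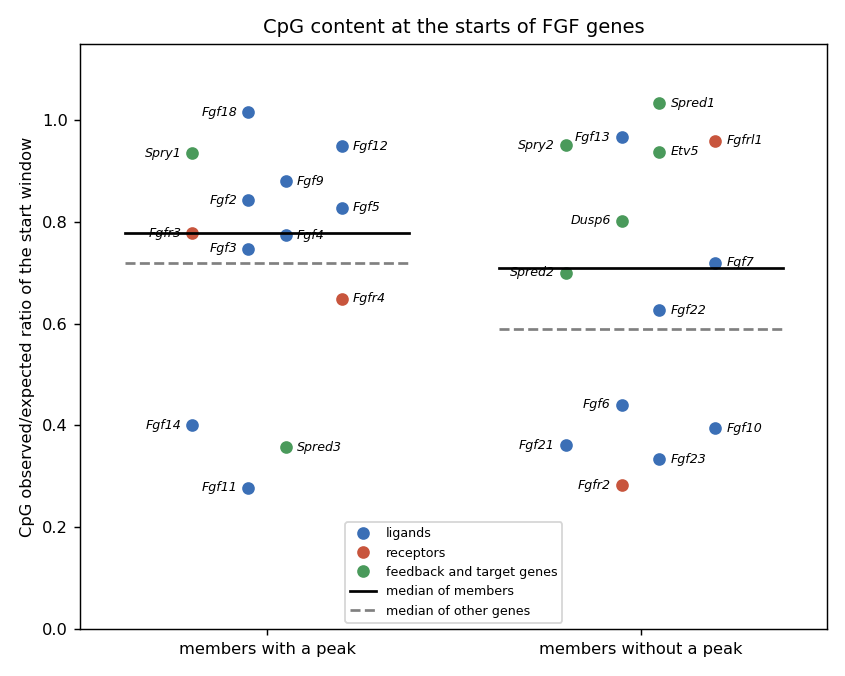
The ratio of observed to expected CpG in the start window (vertical axis) is shown for 13 FGF genes with a peak (left) and 14 without (right), 1 point per gene coloured by role, with the median of the FGF genes as a solid line and that of other genes as a dashed line. The points on both sides run from 0.28 to above 1, and the solid lines stand at 0.78 and 0.71.

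The letters of an ETS core motif, CCGGAAG on either strand, were found in the start windows of 0 of 13 FGF genes with a peak and of 1 of 14 without, Fgfrl1. Among other genes they were in 6.03% of those with a peak and in 14.1% of those without. These letters say only what the 300 bases hold.

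Genes of the inner signalling cascade had no Suz12 peak, and a few partners and targets had one. A further 45 genes, not among the FGF genes above, were also chosen with earlier results of these data known. Of these, 7 had a peak (15.6%, 6.49 to 29.5), against 13.2% of all protein-coding genes. None of 21 genes of the intracellular cascade had one (interval up to 16.1%), among them the adaptor genes Frs2 and Grb2 and the exchange factor genes Sos1 and Sos2. This interval includes the share of all genes. Of 14 co-receptors and extracellular partners, 4 had a peak (28.6%, 8.39 to 58.1), an interval that also includes the share of all genes. Flrt1, a transmembrane partner of FGF receptors, had a 3872 bp peak (score 3034), and Flrt2 one of 2979 bp with score 801. Kl, the co-receptor for Fgf23, had one of 2106 bp scored 1322, while Fgf23 itself had none. Sdc3, a heparan sulfate proteoglycan, had a peak of 1847 bp with score 303.

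Of 10 further targets and inhibitors of ERK, 3 had a peak (30%, 6.67 to 65.2). This interval includes the 13.2% of all protein-coding genes. The immediate early genes Egr1 and Fos had peaks of 2821 bp with score 979 and 2096 bp with score 462, which covered 71.1% and 59.9% of these short genes. The phosphatase gene Dusp4 had a peak of 1086 bp with score 168. Dusp5, Dusp7, Dusp9, Etv1, Il17rd, Ier3 and Myc had none.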

How the data were processed

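Suz12 was mapped by chromatin immunoprecipitation and sequencing in 1 library of wild-type E14 cells at 72 h. Bowtie, MACS and GRCm38 (mm10) are named per the submitters' processing notes. Which versions and settings, and which control or pooled libraries, were used is information not given in the sources used here. Each peak carries a score set by the authors, which served here to describe, rank and filter peaks within the list. The sequencing depth is unknown because the list holds no reads, and signal under the authors' threshold would not be seen.

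Genes and promoter sequences came from RefSeq tables of GRCm38.p6. The table lists 21631 protein-coding genes on the 20 chromosomes with peaks, and 110 of them, Spry3 included, lie on other sequence pieces and were left out. Peak starts were shifted by 1 base to browser coordinates. A gene had a peak when a peak overlapped it or lay within 2.5 kb. Promoter entries matched 27 of the 36 genes (35 windows). The overlap, joining and CpG steps were tested on simulated data. Python 3.11.15, pandas 2.3.3, numpy 2.4.6, scipy 1.17.1 and matplotlib 3.10.9 were used. No test was made, as there is 1 library.

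All FGF genes are named, with peak coordinates for the 3 highest-scoring of each role. The neighbouring cyclin genes were added after the peaks were seen. A planned search for a retinoic acid receptor repeat is not reported, because the letters searched did not have the spacing intended. The genes and lists were chosen with earlier results of these data known.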

Additional observations from a re-analysis of the deposited data

How the results depend on the processing

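Counts, medians and CpG ratios were taken as unmoved within 1.5 times the reported value, a wide margin for small counts, and the share of all genes only within its narrow 95% interval. By these unequal limits, 57 of 71 alternative values were unmoved, 14 moved and 0 reversed, though values of this kind have no direction that could reverse. The unmoved values include joining over 1 kb or 5 kb in place of 3 kb, which changed nothing. The count of FGF genes with a peak was 19 when the peak had to overlap the gene body (Spred3 was lost), 20 within 1 kb and within 5 kb, 18 around gene ends only, 16 with a score minimum of 301 (double the lowest score) and 15 with a minimum at the list median. The ligand count was 12 of 22 around gene ends only and with the minimum of 301, and 11 of 22 with the minimum at the median. The receptor count fell to 1 under both score limits, where Fgfr4 was lost. The feedback count fell to 3 under both, where Spry1 was lost. Around annotated starts the counts were 13 FGF genes, 9 ligands, 2 feedback genes and 4 other pathway genes, and there only 27, 16, 7 and 34 genes could be searched. With the minimum at the median, 4 other pathway genes were left. The share of all protein-coding genes was 12.3% with overlap of the gene body, 12.7% within 1 kb, 14.1% within 5 kb, 11.8% around gene ends, 10% around starts, 10.2% with the minimum of 301 and 7.28% with the minimum at the median. Grouped by whether a start window overlapped a peak, the median CpG ratio was 0.80 in 12 FGF genes and 0.70 in the 15 others, Spred3 included. Windows meeting the island criteria were then present at 75% and 53.3% of these genes. All promoter windows had full length, so the alternative limited to such windows changed nothing. No paired analysis was possible because the list comes from 1 library. The depth is unknown, so the absence of a peak sets no limit on binding.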
